A study of Macaca fascicularis with 15 samples.

Results

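The cytosolic ribosomal protein genes were taken by name from RNA sequencing tables of eye tissue of the cynomolgus monkey, Macaca fascicularis. A gene was included when its whole name was RPL or RPS followed by a number, with or without a trailing A, X or L and a further number, or was RPLP0, RPLP1, RPLP2 or RPSA. The rule found 57 of 12995 genes: 32 of the large subunit outside the stalk, 22 of the small subunit and 3 of the stalk. Each of the 57 names is a gene symbol in the RefSeq annotation of this species (T2T-MFA8v1.1). A further 26 symbols of that annotation fit the pattern and were not analysed here, among them RPL5, RPL11, RPS6, RPS4X and RPS27.

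The cytosolic ribosome makes nearly all of a cell's proteins. Its small subunit reads the messenger RNA, its large subunit joins the amino acids, and a flexible stalk on the large subunit, built on RPLP0 with RPLP1 and RPLP2, recruits the elongation factors. Ribosomal protein mRNAs carry a terminal oligopyrimidine (TOP) start that ties their translation to mTOR signalling, and their products are made in near equal numbers. In the retina, photoreceptors renew their outer segments throughout life, which asks for steady protein synthesis.

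The study set regions of the eye and retina beside each other. Tables were analysed for 11 of the 15 samples: 4 of central retina, 3 of peripheral retina, 2 of whole retina and 2 of whole eye. The other 4 records, of whole retina and whole eye, carry the same numbered source names as the analysed ones and were not analysed here. The animals of every group are labelled wild type, no treatment or age is given, the tissue was held in RNALater, an RNA preservative, and a macaque sample came from 1 eye. The labels give no animal, date or batch, so the spread behind the p-values is that between samples and may be technical, and a batch that follows the tissue groups cannot be told apart from tissue.

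The deposited values are normalized signal per gene with no stated unit, so absolute depth is not known, no counting interval can be given and levels are not compared between genes. Between 171 and 501 genes were listed at 0 in a library. Rod and cone markers were present in all 11 libraries: 5 rod genes summed to 8356 to 14876 in central retina, 13530 to 20156 in peripheral retina, 11560 to 11846 in whole retina and 9387 to 10543 in whole eye. Ganglion cell markers summed to 1742 to 3422 in central retina and 308 to 562 in peripheral retina. In bulk tissue, fewer cells of a type and less RNA per cell cannot be told apart. Ribosomal protein genes have many processed pseudogenes, and how reads that match several copies were counted is not stated.

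Values of genes whose names share a start appeared exchanged between libraries. Among the 29 such genes, in 7 groups of names, the largest group begins with RPS2 and holds 10 genes. RPS2, a small subunit protein near the mRNA entry channel, had values of 666, 29.7, 27.5 and 33.0 in central retina, 3.39, 25.2 and 26.2 in peripheral retina, 1721 and 94.3 in whole retina and 1841 and 110 in whole eye. RPS23, which sits at the decoding centre, had 29.1, 418, 553 and 743 in central retina, 31.1, 560 and 652 in peripheral retina, 195 and 912 in whole retina and 212 and 1159 in whole eye. RPS23 was thus low in central replicate 1, in whole retina replicate 1 and in whole eye replicate 1, where RPS2 was high, while in peripheral replicate 1 both were low and RPS29 stood at 802 against 40.9 and 25.0 in the other 2 peripheral libraries. RPS2, RPS23 and RPS29 were chosen here after their values were seen.

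**Figure D1:**
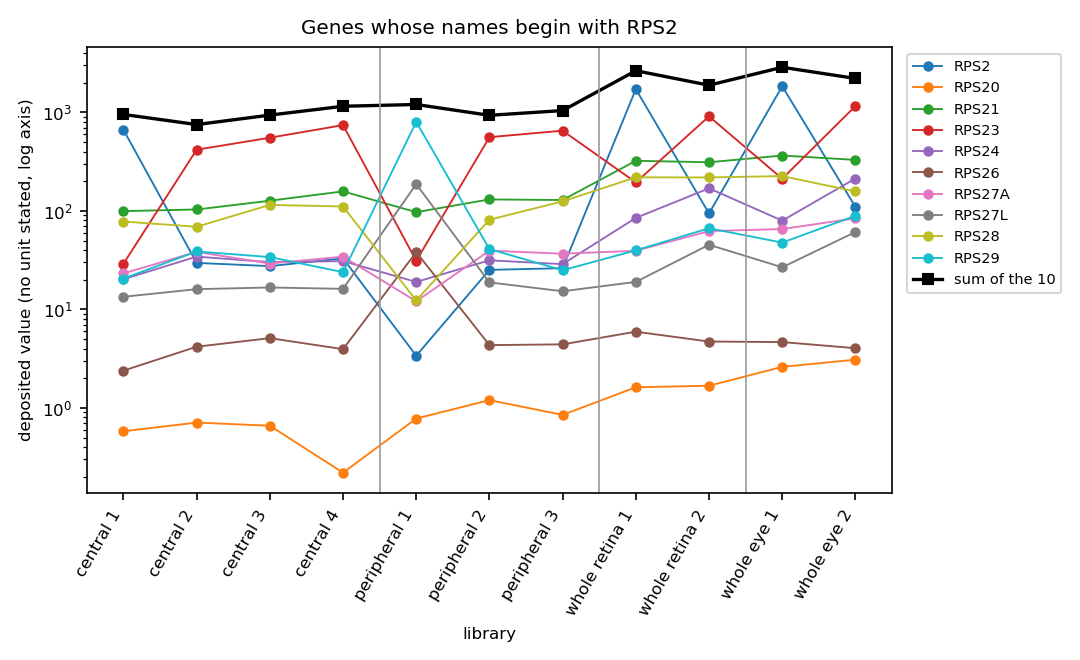
Deposited values (vertical log axis, no unit stated) of the 10 genes whose names begin with RPS2, by library from central retina to whole eye, with their sum in black. RPS2 and RPS23 trade places between libraries of 1 group, while the sum stays within a factor of 1.53 in every group.

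The highest library was at least 2 times the lowest of its own group, in some group, for 18 of the 28 shared-start genes tested (64.3%). The same held for 2 of the 28 genes with a name of their own (7.14%), RPS16 and RPSA, and for 5.47% of the 4739 tested genes that had a mean of at least 10 in every group. The results below therefore lead with the 28 genes that have a name of their own (13 large subunit, 12 small subunit and 3 stalk genes), and give the shared-start genes as totals per group of names. Of the 57 genes, 56 passed the filter on low values (a group mean that reaches 1 somewhere among the 4 groups). RPL3L did not pass, and RPS20 passed only through whole retina and whole eye.

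Ribosomal protein genes took a smaller part of the summed signal in both retinal regions than in whole retina. Their share was 2.50%, 2.46%, 2.88% and 3.05% in central retina, 2.93%, 2.96% and 2.99% in peripheral retina, 4.77% and 4.65% in whole retina, and 5.24% and 4.86% in whole eye. Every regional library lay below every whole retina and whole eye library, with no overlap, while central overlapped peripheral retina and the lower whole eye library lay close to the whole retina pair. The mean share was 2.72% ± 0.286 in central retina (SD, n = 4), 2.96% ± 0.0318 in peripheral retina (SD, n = 3), 4.71% ± 0.0890 in whole retina (SD, n = 2) and 5.05% ± 0.270 in whole eye (SD, n = 2).

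Most ribosomal protein genes had a lower normalized signal in central retina and in peripheral retina than in whole retina. Both regions are parts of the retina, and why both lay below the whole was not tested. Differences are of mean log2(value + 1), which understates the change of genes at low values, and a gene was called at an adjusted p under 0.05 in limma over 11933 genes. Of the 28 genes with a name of their own, 23 were lower in central retina and 0 were higher, with a median difference of -1.06, a ratio of 0.479. Across all tested genes 29.7% were lower, 18.9% were higher and the median difference was -0.10. In peripheral retina 20 of the 28 were lower than in whole retina and 0 were higher, with a median of -0.91, a ratio of 0.532, where 24.3% of all genes were lower, 9.83% were higher and the median was -0.08. With shared-start genes included, 38 of 56 were lower in central retina (37 of 55 without RPS20) and 34 of 56 in peripheral retina. Both comparisons use the same 2 whole retina libraries.

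**Figure D2:**
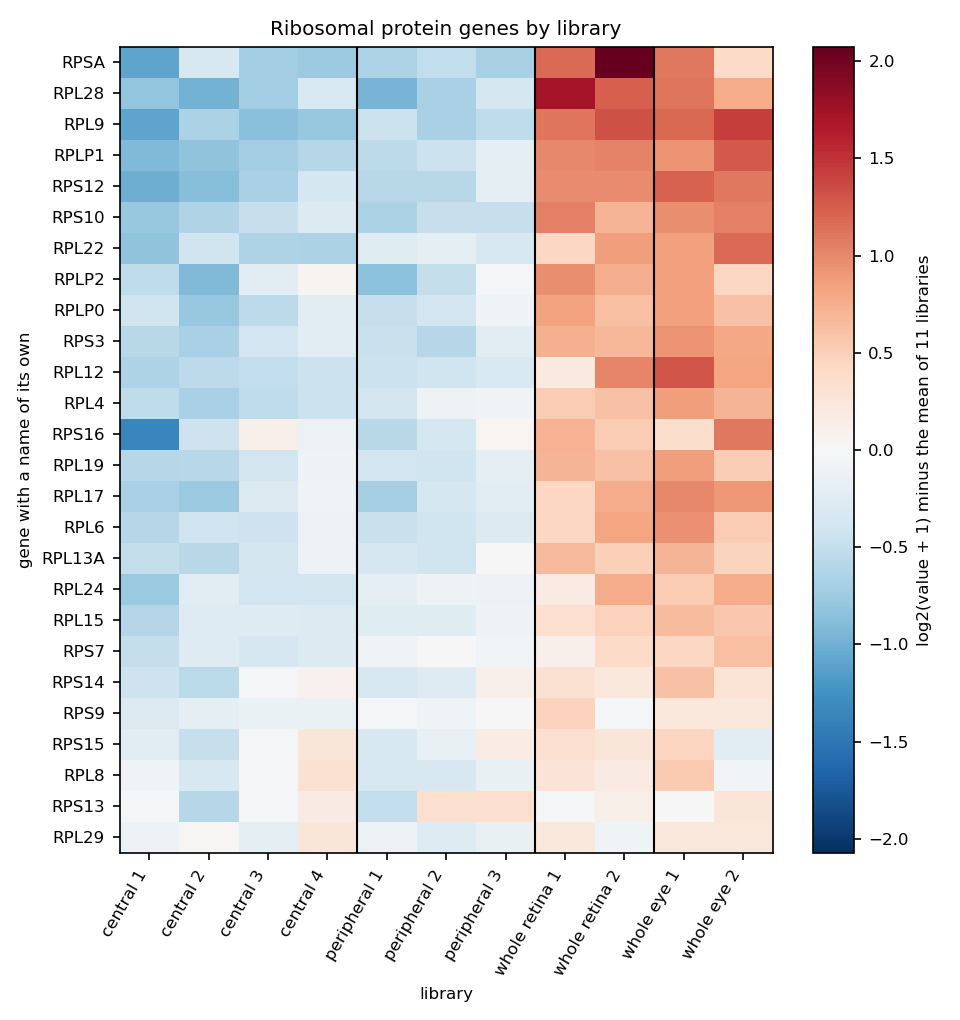
Log2(value + 1) of 26 of the 28 genes with a name of their own in each library, minus the gene's mean over 11 libraries (colour), ordered by the difference between central and whole retina. The 4 central and 3 peripheral libraries are below the mean for most genes in the upper part, and the 4 whole retina and whole eye libraries above it. The last 5 genes, from RPS9 to RPL29, show the smallest step.

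Both whole retina libraries exceeded all 7 regional libraries for 23 of the 28 genes, against 27.9% of all tested genes, and for none did both lie below. Under quantile normalization, which gives all libraries 1 distribution, the median of all genes moved from -0.10 to 0.12 for central minus whole retina and from -0.08 to 0.16 for peripheral minus whole retina. The calls over all genes then turned from 2257 higher and 3549 lower to 3681 higher and 2502 lower in central retina, and from 1173 higher and 2904 lower to 3143 higher and 2022 lower in peripheral retina. Relative to the median of all genes, the median of the 28 stood at -0.96 in central retina as deposited and -0.93 after quantile normalization, and at -0.83 and -0.77 in peripheral retina.

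The 3 stalk genes were lower in both regions. RPLP0, the scaffold of the stalk, had values of 167, 129, 152 and 190 in central retina, 160, 169 and 212 in peripheral retina, and 399 and 344 in whole retina. RPLP1, an acidic stalk protein, had 134, 141, 155 and 168 in central retina, 173, 186 and 218 in peripheral retina, and 504 and 519 in whole retina. RPLP2, the partner of RPLP1, had 163, 125, 201 and 246 in central retina, 131, 168 and 230 in peripheral retina, and 459 and 401 in whole retina. For each of the 3, no regional library reached the lower whole retina library. The log2 difference of central from whole retina was -1.23 ± 0.17 (SE) for RPLP0, -1.77 ± 0.15 for RPLP1 and -1.26 ± 0.27 for RPLP2, with limma adjusted p-values of 0.000158, 2.91e-06 and 0.00278. In peripheral retina the differences were -1.05 ± 0.18, -1.41 ± 0.16 and -1.32 ± 0.29 in the same gene order, with limma adjusted p-values of 0.00116, 4.21e-05 and 0.00458.

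Among the 13 large subunit genes with a name of their own, 11 were lower in central retina and 11 in peripheral retina, with medians of -1.06 and -0.90. RPL9, a protein near the base of the stalk, had 63.5, 85.8, 73.8 and 78.7 in central retina, 99.6, 85.4 and 93.8 in peripheral retina, and 294 and 339 in whole retina. All 7 regional libraries lay far below both whole retina libraries, and the ratios of the means were 0.238 for central and 0.294 for peripheral retina. RPL9 had the smallest limma adjusted p of the set in central retina, 7.27e-07, for a difference of -2.06 ± 0.14, and in peripheral retina it differed by -1.76 ± 0.15 with an adjusted p of 6.64e-06.

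RPL28, a large subunit protein that yeast lacks, had 55.4, 49.2, 58.9 and 78.7 in central retina, 49.97, 61.2 and 75.7 in peripheral retina, and 326 and 233 in whole retina. The regions overlapped each other and lay well below both whole retina libraries. It differed by -2.19 ± 0.22 in central retina, with a limma adjusted p of 1.16e-05, and by -2.15 ± 0.23 in peripheral retina, with an adjusted p of 3.55e-05.

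RPL22, a large subunit protein that also binds RNA outside the ribosome, had 35.3, 47.1, 40.3 and 39.8 in central retina, 53.1, 55.4 and 50.2 in peripheral retina, and 85.1 and 116 in whole retina. The 3 groups did not overlap. It differed from whole retina by -1.28 ± 0.16 in central retina, with a limma adjusted p of 5.47e-05, and by -0.90 ± 0.17 in peripheral retina, with an adjusted p of 0.00163. RPL13A, which in human cells also takes part in silencing inflammatory mRNAs, had 469, 443, 509 and 610 in central retina, 517, 499 and 668 in peripheral retina, and 1055 and 928 in whole retina. Again no regional library reached whole retina, and the differences were -0.97 ± 0.18 and -0.83 ± 0.19 for the central and peripheral regions, with limma adjusted p-values of 0.000917 and 0.00533.

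Among the 12 small subunit genes with a name of their own, 9 were lower in central retina, with a median of -0.77, and 6 in peripheral retina, with a median of -0.80. RPSA, a small subunit protein also described as a laminin receptor, was listed at low values: 1.66, 3.51, 2.44 and 2.36 in central retina, 2.66, 2.99 and 2.57 in peripheral retina, and 11.9 and 22.9 in whole retina. The 7 regional libraries lay below both whole retina libraries, which themselves differed widely. It had the largest difference of the 28 genes in both regions, -2.36 ± 0.27 in central retina with a limma adjusted p of 3.58e-05 and -2.23 ± 0.29 in peripheral retina with an adjusted p of 0.000144.

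RPS12, a small subunit protein, was chosen after its values were seen as the small subunit gene next to RPSA. It had 151, 166, 192 and 238 in central retina, 207, 207 and 265 in peripheral retina, and 606 and 608 in whole retina. The whole retina pair lay more than 2 times above the highest regional library, and the differences were -1.72 ± 0.18 and -1.43 ± 0.19 for the central and peripheral regions, with limma adjusted p-values of 1.77e-05 and 0.000184.

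The difference was not of 1 size across the set: among the 28 genes it ran from -2.36 (RPSA) to -0.08 (RPL29) in central retina and from -2.23 (RPSA) to 0.004 (RPS13) in peripheral retina. Whole retina did not exceed every regional library for 5 genes, which are named for that reason after their values were seen: RPL8 and RPL29 of the large subunit and RPS9, RPS13 and RPS15 of the small subunit. RPL8, a protein next to the peptidyl transferase centre, had 479, 401, 491 and 631 in central retina, 403, 403 and 455 in peripheral retina, and 607 and 571 in whole retina. RPS13, a small subunit protein at the contact with the large subunit, had 13.8, 9.14, 13.8 and 16.1 in central retina, 9.74, 18.1 and 18.1 in peripheral retina, and 13.9 and 15.6 in whole retina. For both, central replicate 4 lay above both whole retina libraries, and for RPS13 so did 2 peripheral libraries.

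The 95% interval of the central minus whole retina difference was -0.69 to 0.19 for RPL8, -0.73 to 0.39 for RPS13 and -0.42 to 0.25 for RPL29. These intervals lie above the point estimates of RPSA, RPL28 and RPL9, although the differences between genes were not tested. RPS15, in which the interval ran from -0.93 to 0.11, did not pass either. RPS9, a protein of the decoding region, passed in central retina with a difference of -0.42 and a limma adjusted p of 0.0348, and without whole retina replicate 1 its adjusted p was 0.414.

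**Figure D3:**
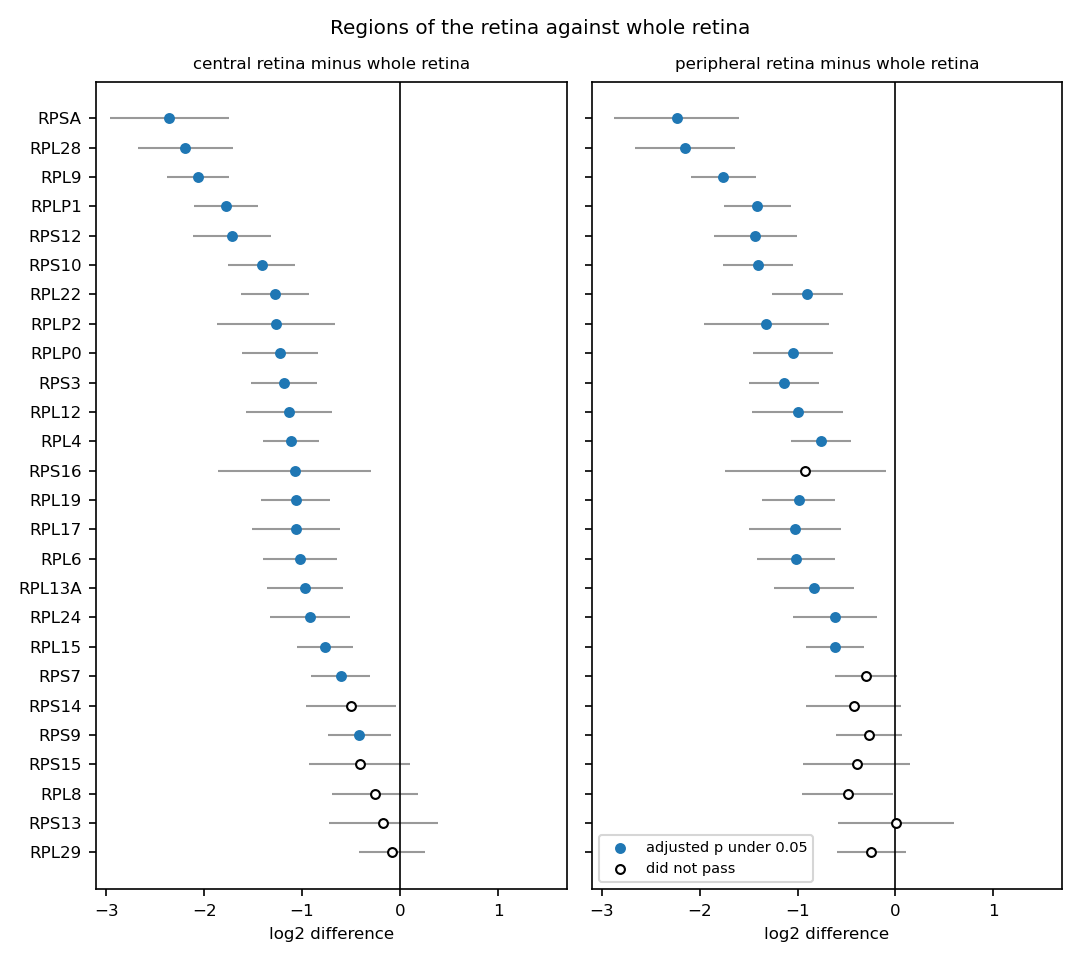
Log2 difference (horizontal axis, with its 95% interval as a line) of central retina (left) and peripheral retina (right) from whole retina for 26 of the 28 genes with a name of their own; filled points passed the limma threshold. The points run from -2.36 to -0.08 on the left and from -2.23 to 0.004 on the right, with 21 and 18 filled.

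The calls rested on 2 whole retina libraries. With each of the 11 libraries left out in turn, 19 of the 23 calls in central retina and 17 of the 20 in peripheral retina passed in every fit. In central retina RPS16 lost its call without either whole retina library (adjusted p up to 0.123), RPS7 without whole retina replicate 2 (adjusted p 0.0650), and RPS9 in 6 fits. In peripheral retina RPL24 lost its call in 4 fits (adjusted p 0.298 without whole retina replicate 2).

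Where names share a start, the totals per group of names were also lower in both regions, for all 7 groups. The RPS2 group summed to 953, 752, 938 and 1154 in central retina, 1202, 934 and 1043 in peripheral retina, and 2648 and 1887 in whole retina. No regional sum reached either whole retina sum, and the fitted ratios were 0.420 in central retina (limma adjusted p 0.000378) and 0.472 in peripheral retina (adjusted p 0.00241). The RPL3 group of 8 genes summed to 1070, 1141, 1393 and 1469 in central retina, 1251, 1269 and 1015 in peripheral retina, and 1542 and 2080 in whole retina. Its ratios were 0.702 for central retina, the nearest to 1 of the 7 there, and 0.655 for peripheral retina, with limma adjusted p-values of 0.0424 and 0.0331. The RPL23 group of 2 genes had the lowest ratios, 0.267 in central retina (limma adjusted p 4.42e-07) and 0.332 in peripheral retina (adjusted p 5.37e-06).

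Of the shared-start genes with the smallest p-values, RPL23, a large subunit protein at the contact between subunits that in human cells binds MDM2, had 107, 128, 140 and 150 in central retina, 154, 178 and 157 in peripheral retina, and 524 and 491 in whole retina. RPL27, a large subunit protein, had 105, 131, 131 and 138 in central retina, 137, 145 and 160 in peripheral retina, and 370 and 380 in whole retina. RPL10, which joins the large subunit late in its assembly, had 81.9, 86.6, 100.02 and 99.0 in central retina, 72.1, 77.9 and 68.3 in peripheral retina, and 284 and 221 in whole retina. All 3 were lower in both regions with no overlap, and none of them varied by 2 times within a group. The differences of central from whole retina were -1.95 ± 0.15 for RPL23, -1.57 ± 0.13 for RPL27 and -1.44 ± 0.14 for RPL10, with limma adjusted p-values of 1.45e-06, 3.25e-06 and 8.63e-06. Those of peripheral retina were -1.64 ± 0.16, -1.35 ± 0.14 and -1.77 ± 0.15 in the same gene order, with limma adjusted p-values of 1.43e-05, 2.70e-05 and 5.01e-06.

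Paralogues of ribosomal proteins were followed beside their partners. RPL26L1, a near copy of RPL26, had 36.1, 38.6, 44.6 and 41.9 in central retina, 35.9, 41.6 and 49.1 in peripheral retina, and 33.9 and 41.7 in whole retina. RPL26, a large subunit protein near the exit of the nascent chain, had 5.51, 13.9, 10.9 and 7.84 in central retina, 12.5, 12.7 and 9.97 in peripheral retina, and 48.8 and 36.0 in whole retina. Both regions overlapped whole retina for RPL26L1. For RPL26 the regions overlapped each other, and no regional library reached either whole retina library. The pair shares a start and near-identical sequence, so reads or values may be divided between them. RPL26L1 differed by 0.09 ± 0.15 in central retina (limma adjusted p 0.648) and RPL26 by -2.10 ± 0.32 (adjusted p 0.000287). In peripheral retina RPL26L1 differed by 0.15 ± 0.16 (limma adjusted p 0.516) and RPL26 by -1.76 ± 0.34 (adjusted p 0.00217).

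RPL7L1, a distant relative of RPL7 known from ribosome assembly, had 14.6, 15.5, 14.7 and 14.2 in central retina, 15.4, 13.6 and 14.2 in peripheral retina, and 21.9 and 19.95 in whole retina. RPL7, a large subunit protein, had 50.6, 74.1, 55.1 and 57.1 in central retina, 83.2, 74.0 and 83.1 in peripheral retina, and 125 and 197 in whole retina. Both were lower in both regions with no overlap, by -0.48 ± 0.11 (RPL7L1, limma adjusted p 0.00495) and -1.41 ± 0.19 (RPL7, adjusted p 0.000105) in central retina. In peripheral retina RPL7L1 differed by -0.51 ± 0.12 (limma adjusted p 0.00695; 0.0513 without whole retina replicate 1) and RPL7 by -0.96 ± 0.20 (adjusted p 0.00331).

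RPL3L, the striated muscle paralogue of RPL3, was listed at 0 in all 7 regional libraries, at 0.03 and 0.02 in whole retina and at 1.07 and 0.19 in whole eye. The skeletal muscle marker ACTA1 stood at 0.53 and 0.58 in whole retina and at 39.8 and 8.52 in whole eye, so the whole eye library with more RPL3L was also the one with more ACTA1. RPL3, a large subunit protein at the peptidyl transferase centre, had 286, 64.9, 71.5 and 89.7 in central retina, 66.6, 106 and 406 in peripheral retina, 371 and 439 in whole retina and 646 and 485 in whole eye. Central replicate 1 and peripheral replicate 3 stood apart for RPL3. Its difference of central from whole retina was -1.94 ± 0.68 (limma adjusted p 0.0346) and lost its call in 5 of 11 fits that left out a library (adjusted p 0.155 without whole retina replicate 2); in peripheral retina it was -1.50 ± 0.72 (adjusted p 0.132; 0.0144 without peripheral replicate 3).

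RPS27L, a paralogue of RPS27 that in human cells is induced by p53, had 13.4, 16.1, 16.7 and 16.2 in central retina, 187, 18.8 and 15.3 in peripheral retina, 19.0 and 45.3 in whole retina and 26.8 and 61.1 in whole eye. RPS27A, which is made as a fusion with ubiquitin, had 23.2, 38.4, 29.2 and 34.3 in central retina, 12.1, 39.5 and 36.8 in peripheral retina, 39.4 and 62.4 in whole retina and 65.5 and 84.0 in whole eye. Both belong to the RPS2 group of names, in which peripheral replicate 1 stands apart, and neither passed in any comparison with all 11 libraries. Without that library RPS27A was lower in central than in whole retina (limma adjusted p 0.0329). RPL39, a small protein of the exit tunnel in the RPL3 group, had 3.25, 1.26, 6.65 and 2.04 in central retina, 1.32, 5.46 and 6.24 in peripheral retina, and 6.66 and 12.4 in whole retina, and did not pass either (limma adjusted p 0.0634 and 0.190 for the central and peripheral regions against whole retina). It was called lower in central retina without central replicate 3 (adjusted p 0.0254) or peripheral replicate 1 (0.0367).

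RPS4Y1, the Y-linked gene for a small subunit protein, falls outside the naming rule and was listed among the paralogues. It had 44.4, 46.1, 49.6 and 53.3 in central retina, 61.0, 64.6 and 69.2 in peripheral retina, and 179 and 154 in whole retina, with no overlap. It differed from whole retina by -1.77 in central retina (limma adjusted p 4.63e-07) and by -1.35 in peripheral retina (adjusted p 1.02e-05). It was also lower in central than in peripheral retina (-0.42, limma adjusted p 0.0152), a call lost without peripheral replicate 2 or 3 (adjusted p up to 0.0623). The sex of the animals is not given, and reads of its X-linked relative may be counted with it.

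Markers of several other tissues and cell types moved in the same direction between the groups, and others in the opposite one. The 3 pigment epithelium markers measured summed to 50.2 to 123 in central retina, 296 to 438 in peripheral retina, 1725 to 1848 in whole retina and 1814 to 2047 in whole eye. The 3 fibrous stroma markers summed to 2.71 to 6.33 in central retina, 6.74 to 12.5 in peripheral retina, 173 to 261 in whole retina and 291 to 383 in whole eye. The 2 immune markers measured summed to 16.7 to 25.5 in central retina, 25.5 to 39.3 in peripheral retina, 321 to 1179 in whole retina and 229 to 298 in whole eye. The 4 markers of Müller glia, which belong to the retina itself, summed to 1078 to 1274 in central retina, 1824 to 2105 in peripheral retina, 2597 to 2723 in whole retina and 2801 to 2919 in whole eye. The sum of each of these 4 lists was lower in every regional library than in either whole retina library. No marker of these lists was at 0 throughout a group. Of the Müller glia markers, WIF1 (470, 482 and 516 against 417 and 503) and GLUL (769, 632 and 686 against 782 and 721) overlapped between peripheral and whole retina. CLU (403, 355 and 386 against 962 and 845) and RLBP1 (459, 356 and 517 against 561 and 528) did not. In the opposite direction, 2 bipolar cell markers summed to 106 to 118 in central retina, 99.5 to 114 in peripheral retina and 82.9 to 83.7 in whole retina. The 4 cone markers summed to 1591 to 2299 in central retina, 1428 to 1747 in peripheral retina and 951 to 1300 in whole retina, and 2 skeletal muscle markers to 2.36 to 3.54 in central retina, 1.57 to 2.99 in peripheral retina and 0.55 to 0.65 in whole retina. The part of any of these in the ribosomal protein result was not tested.

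Between the regions themselves, none of the tested members passed: 0 of 56 were higher and 0 lower in central than in peripheral retina, whereas 21.3% of all tested genes differed (12.5% higher, 8.76% lower). At an unadjusted p under 0.05, 1 of 56 was higher and 8 were lower. Of all 11933 tested genes, 2255 were higher and 2009 lower at that threshold. Neither count of members exceeds the share over all genes. The 28 genes with a name of their own had a median difference of -0.13, against -0.01 for all genes, and ran from -0.38 (RPL22) to 0.23 (RPL8), with 24 below 0. All 28 of their 95% intervals lay within a 2-fold change in either direction, the median half-width being 0.35, so smaller differences of the size of the median were within the error.

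RPL4, a large subunit protein lining the exit tunnel, came nearest to the threshold and is named for that reason after its values were seen. It had 199, 180, 200 and 211 in central retina and 219, 268 and 274 in peripheral retina. All 4 central libraries lay below the 3 peripheral ones, and the difference was -0.36 ± 0.12 with a limma adjusted p of 0.0502. The difference was -0.38 ± 0.14 for RPL22 (limma adjusted p 0.0754) and -0.36 ± 0.13 for RPLP1 (adjusted p 0.0718), from the values given above, and the regions did not overlap for either gene.

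The count of 0 was not stable: 8 genes were lower after quantile normalization, where 9.99% of all 11933 genes were lower. RPL22 and RPL7 were lower, with RPL10 higher, when only the libraries of these regions were fitted. In that fit 1237 of all genes (10.4%) were lower and 1676 higher. RPL22 and RPL7 were also called lower without central replicate 2 and without either whole retina library, and RPL4 without peripheral replicate 1. The median over all tested members was -0.14, and it was -0.0059 without peripheral replicate 3, the peripheral library with the highest value for 21 of the 28 genes, -0.02 without central replicate 1 and -0.06 without central replicate 2. Within central retina, replicate 4 was highest for 20 of the 28, and replicates 1 and 2 were lowest for 14 and 13. Genes thus moved together between libraries of 1 group: the correlation of their deviations from the group means over 11 libraries had a median of 0.42 over all pairs of the 28, a description of values that share library and scaling.

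Between whole retina and whole eye, 0 of 56 were called in each direction, against 2.27% of all tested genes in either, so the count lies near that of all genes. At an unadjusted p under 0.05, 1 was higher and 1 was lower, beside 596 higher and 669 lower of all 11933 tested genes. The median of the 28 genes with a name of their own was -0.10, against -0.01 for all genes, and 26 of their 28 intervals lay within a 2-fold change in either direction. RPSA was the exception in size, at 11.9 and 22.9 in whole retina and 11.2 and 6.49 in whole eye. Both whole retina libraries lay above both whole eye libraries, and the difference was 0.88 ± 0.32 with a limma adjusted p of 0.327. RPL12, a large subunit protein beside the stalk base, had 30.6 and 54.4 in whole retina and 66.8 and 47.7 in whole eye. Its result was not stable without whole retina replicate 2, a fit that leaves 1 whole retina library. RPL3L, at 1.07 and 0.19 in whole eye, reached the filter on low values only without whole eye replicate 2. That rests on the 1 whole eye library where it was high, so RPL3L is not counted here. The whole eye held far more signal of tissues outside the retina: 3 lens markers summed to 12.5 to 19.9 in whole retina and 441 to 453 in whole eye, and 2 blood markers to 110 to 383 in whole retina and 1497 to 2495 in whole eye.

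**Figure D4:**
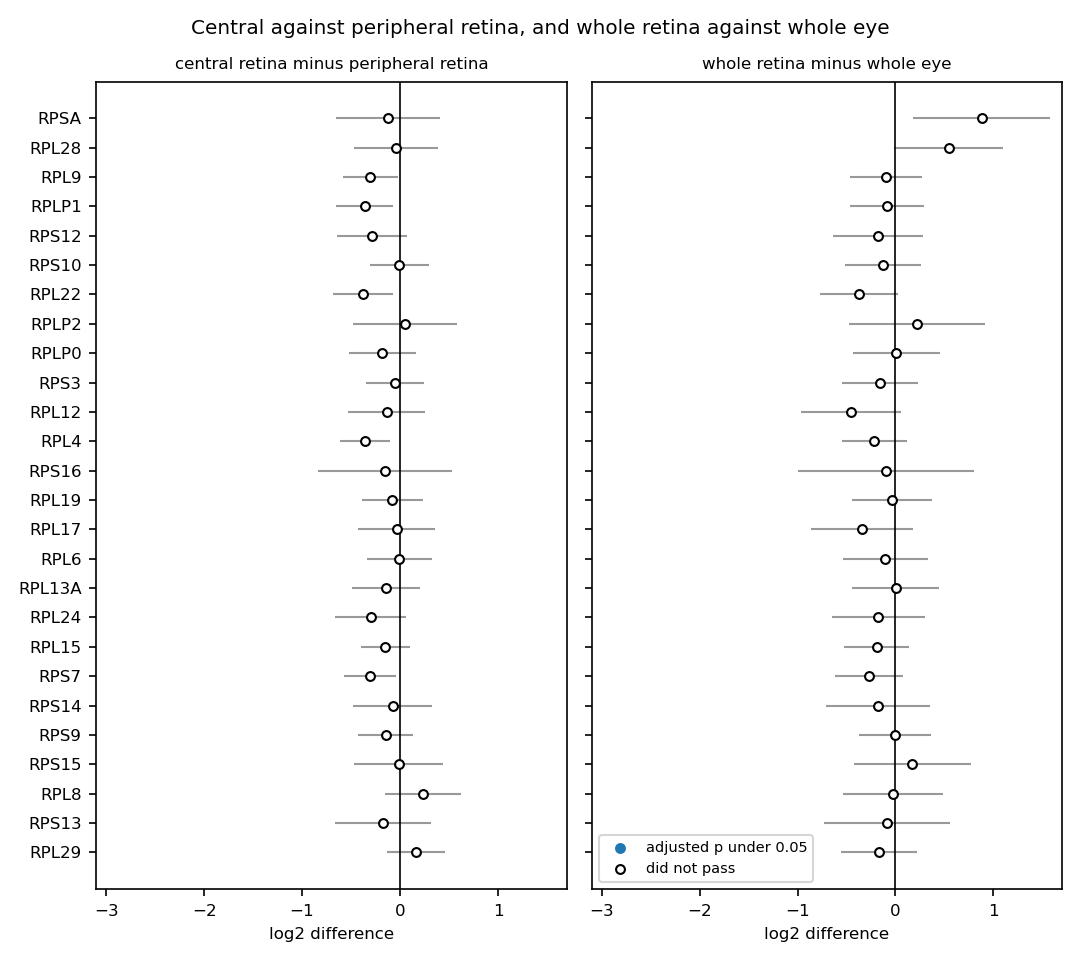
Log2 difference (horizontal axis, with its 95% interval as a line) of central from peripheral retina (left) and of whole retina from whole eye (right) for 26 of the 28 genes with a name of their own; every point is open because none passed the limma threshold. On the left the points lie between -0.38 and 0.23, and on the right RPSA lies farthest from 0, at 0.88.

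Other genes of protein synthesis were set beside the ribosomal proteins. The lists overlap: EEF1A1 and EEF2 are counted among TOP mRNAs and elongation factors, and PABPC1 among TOP mRNAs and initiation factors. Of 12 tested partners and other TOP mRNAs, 8 were lower in central retina than in whole retina and 0 higher, with a median of -0.95, and 9 were lower in peripheral retina and 0 higher, with a median of -0.82. FAU, which encodes a small subunit protein fused to a ubiquitin-like protein, is named here after its values were seen. It had 419, 406, 517 and 509 in central retina, 398, 459 and 500 in peripheral retina, and 530 and 465 in whole retina. Its groups overlapped and it did not pass (-0.11 for central and -0.14 for peripheral minus whole retina, limma adjusted p 0.579 and 0.542).

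Of 7 tested elongation factor genes, 4 were lower in central retina and 5 in peripheral retina than in whole retina, none was higher, and the medians were -0.83 and -0.86. EEF1A1, which delivers aminoacyl-tRNA to the ribosome, had 60.5, 52.5, 57.2 and 60.6 in central retina, 86.3, 75.0 and 88.8 in peripheral retina, and 221 and 208 in whole retina. The 3 groups did not overlap, and EEF1A1 was lower in central than in peripheral retina (-0.52, limma adjusted p 0.00736) and lower in each than in whole retina (-1.88 and -1.36, adjusted p 5.30e-07 and 1.67e-05). EEF2, the translocase, had 314, 258, 340 and 367 in central retina, 206, 182 and 233 in peripheral retina, and 351 and 306 in whole retina. EEF2, which shares the start of its name with another gene, was higher in central than in peripheral retina (0.62, limma adjusted p 0.0137; 0.0730 without peripheral replicate 2), so the 2 factors moved in opposite directions between the regions.

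Against whole retina, 29.7% of all tested genes were lower and 18.9% higher in central retina, and 24.3% lower and 9.83% higher in peripheral retina. Of 29 tested initiation factor genes, 15 were lower and 0 higher in central retina than in whole retina (median -0.48), and 12 were lower and 1 higher in peripheral retina (median -0.40). Of 31 ribosome biogenesis genes, 14 were lower and 0 higher in central retina (median -0.30), and 5 were lower and 0 higher in peripheral retina (median -0.25). Of 61 mitochondrial ribosomal protein genes, which serve the separate ribosome of the mitochondrion, 13 were lower and 4 higher in central retina (median -0.18), and 13 were lower and 1 higher in peripheral retina (median -0.20). Of 16 genes of mTOR and S6 kinase signalling, 7 were higher and 2 lower in central retina (median 0.24), and 1 was higher and 1 lower in peripheral retina (median 0.12). The lower genes were EIF4EBP1 in both regions and RRAGC in central retina. EIF4EBP1 passed the filter on low values only through whole retina and whole eye. It had 0.63, 0.21, 0.49 and 0.54 in central retina, 0.71, 1.08 and 1.04 in peripheral retina, and 6.38 and 4.34 in whole retina.

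**Figure D5:**
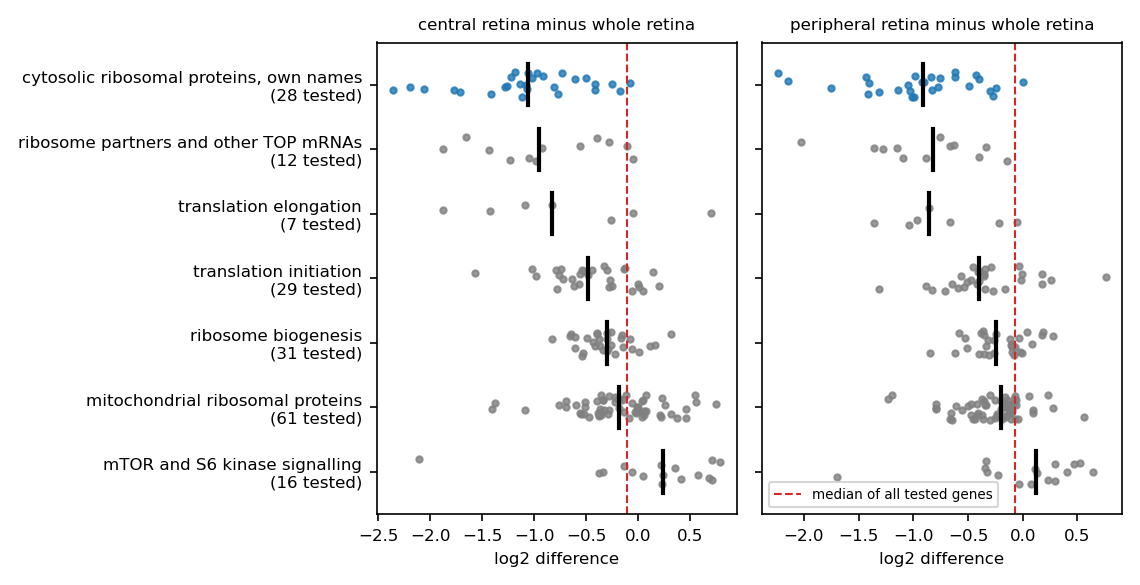
Log2 difference (horizontal axis) of central retina (left) and peripheral retina (right) from whole retina for each tested gene of 7 sets (points, spread vertically for legibility), with the median of each set as a black bar and the median of all tested genes as a dashed red line. The medians run from -1.06 for cytosolic ribosomal proteins to 0.24 for mTOR signalling on the left, and from -0.91 to 0.12 on the right.

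Between central and peripheral retina, where 12.5% of all tested genes were higher and 8.76% lower, the counts were 1 higher and 1 lower of 7 elongation factors, 0 higher and 2 lower of 29 initiation factors, 1 and 2 of 12 partners and TOP mRNAs, 0 and 4 of 31 biogenesis genes, 3 and 0 of 16 mTOR genes and 3 and 0 of 61 mitochondrial ribosomal proteins. EEF2 (higher) and EEF1A1 (lower) are counted both as elongation factors and as TOP mRNAs. Of the 4 tested paralogues, 0 were higher and 1, RPS4Y1, was lower. TSC2, an inhibitor of mTOR complex signalling, was higher in central retina, at 39.4, 36.3, 39.7 and 45.8 against 23.7, 23.9 and 27.6 in peripheral retina (0.66, limma adjusted p 0.00236). LARP1, which binds TOP mRNAs, was also higher, at 26.5, 20.5, 24.2 and 23.1 against 15.4, 15.7 and 14.9 in peripheral retina (0.59, adjusted p 0.00316); both names share a start with other names. MRPL12, of the mitochondrial large subunit, was higher at 63.5, 67.7, 62.3 and 79.4 against 43.2, 44.7 and 44.7 in peripheral retina (0.61, adjusted p 0.00626). None of the 3 overlapped between the regions. Of the 15 listed genes that passed here and met the naming rule, these 3 and EEF1A1 passed in every fit that left out a library, and 11 lost their call in at least 1. No gene of any list passed between whole retina and whole eye.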

How the data were processed

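The authors deposited 1 table per library, and per the file headers each holds 1 normalized signal value per gene, with the normalization not stated. GSNAP and HTSeq are named in the submitters' processing notes without version; not given in the sources used here are build, annotation, strand and multi-mapping rules. From the 13083 entries of a table, 27 without a value and 61 exact duplicates were dropped. The values are not whole reads, so no count test was run, and limma 3.58.1 (R 4.3.3) was fitted with a variance trend to log2(value + 1) of 11 libraries in 4 groups that share 1 variance per gene. The 11933 genes whose mean reached 1 in some group were tested. Tests are two-sided, with Benjamini-Hochberg adjustment per comparison at a threshold of 0.05; the script was tested on simulated data. The members and gene lists were chosen with earlier results of these data known. Named genes were up to 6 members per direction by smallest p, a set of stalk genes, paralogues and their partners, and up to 3 genes per list and direction in central against peripheral retina and whole retina against whole eye; of the last, some are counted without being named. Alternatives were other pseudocounts (0.1, 10), no filter, quantile and median-of-ratios scaling, fits of only the groups compared, a replicate block, name-group totals and single libraries left out. Some genes are counted here but not reported by name, and the plots leave them out. Summaries used pandas 2.3.3 and numpy 2.4.6, figures matplotlib 3.10.9.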

Additional observations from a re-analysis of the deposited data

Results flagged for a closer look

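In central retina, the only group of at least 4 libraries, 5 of the 57 genes had 1 library that stood far from the other 3, where chance alone would give about 1 in 20. RPS2 stood at 666 in replicate 1 against 27.5 to 33.0 in the others. RPL37A stood at 476 in replicate 3 against 106 to 136. RPL3 stood at 286 in replicate 1 against 64.9 to 89.7. RPL35 stood at 96.0 in replicate 1 against 177 to 191. These 4 have names that share a start with other names. RPL15, a large subunit gene with a name of its own, stood at 121 in replicate 1 against 151 to 154. The causes were not tested.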

How the results depend on the processing

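Against whole retina, between 30 and 41 of the tested members were lower in central retina and 25 to 38 in peripheral retina over the alternatives, 20 to 25 and 15 to 23 for names of their own, and 0 were higher; with single libraries left out, 7 of the 38 central and 9 of the 34 peripheral calls were lost at least once. Over the same alternatives, 21.0% to 31.3% of all tested genes were lower in central retina and 16.9% to 25.3% in peripheral retina. Under quantile normalization the median over members was -0.81 in central retina (-0.81 for names of their own) and -0.65 in peripheral retina (-0.60 for names of their own). Central against peripheral retina was the unstable comparison. Members lower there numbered 1 with a pseudocount of 0.1, 8 under quantile normalization, 2 (and 1 higher) with only the libraries of the 2 groups, and 1 with name-group totals; for names of their own these were 1, 5, 1 and 1. Of all tested genes, 9.69%, 9.99%, 10.4% and 9.19% were lower under these settings, in the same order. With single libraries left out, between 0 and 2 members (0 and 1 of those with names of their own) were lower there. The share over all genes was then 4.18% to 11.6%, and the median member difference lay between -0.19 and -0.0059. Calls of whole retina against whole eye are not counted over these fits, since leaving out a library of either group leaves 1. Same-numbered libraries correlated at -0.139, -0.061 and 0.357 in their deviations between central and peripheral retina. The labels give no animal, so whether the numbers pair the libraries could not be settled. With the replicate block, 3 members were lower between these regions (3 with names of their own), beside 7.425% of all genes. The median of central minus whole retina was then -1.19. Of 3200 single-gene alternatives, 105 lost and 36 gained a call. The causes were not tested. The deposited signal has no known depth, so the error of low values such as RPSA could not be set by counting, and whole reads could not be recovered for a count test. Whole retina and whole eye rest on 2 libraries each.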
